A study of Mus musculus with 4 samples.

Results

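The 7 genes described here are the connexin genes Gja1, Gja4, Gja5 and Gjc1 and the arterial marker genes Bmx, Gkn3 and Alpl. They were taken by name from the 54446 genes of the deposited expression table, and each of the 7 names matched exactly 1 gene. RNA was sequenced from endothelial cells, which line blood vessels, isolated by fluorescence-activated sorting from retinas of C57BL/6 mice aged 16 postnatal days. Of the 4 libraries, each made from 100 sorted cells, 2 came from controls (genotype "control") and 2 from animals titled Zeb1-CKO, whose genotype field reads "Zeb1 knockdown". Zeb1 encodes a zinc-finger transcriptional repressor, and the comparison asks what differs in retinal endothelium when it is targeted. Which Cre line or allele was used, and how many animals gave each library, is not given in the labels. The p-values below therefore measure only the spread between these libraries, which may be technical.

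Connexins are membrane proteins of which a set assembles into a hemichannel, and hemichannels of neighbouring cells dock into gap junctions that pass ions and small metabolites. In vessels Gja4 and Gja5 are the connexin genes linked to arterial endothelium, Gja1 is expressed in endothelium, mural cells and astrocytes, and Gjc1 is best known from smooth muscle and the heart. Bmx encodes a TEC-family tyrosine kinase of large-artery endothelium. Gkn3 encodes a gastrokine, a secreted protein first described in stomach and used as a marker of arterial endothelium in brain. Alpl encodes tissue-nonspecific alkaline phosphatase, whose activity marks arterioles and capillaries in nervous tissue.

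The coding sequences of the 4 connexins are related but not near-identical. Values in the table are per gene and draw on whole transcripts, of which coding sequence is only a part (1146 of 3182 bases in the longest coding transcript of Gja1). All 4 share the cysteine pattern of the first extracellular loop, through which hemichannels dock, and it was found in frame 1 time in each coding sequence as 3 cysteine codons with 6 and 3 codons between them. The stretches below are shown because they are what the family shares by sequence, and their capitals mark the cysteine codons. They lie in coding exons at chr10:56387706-56387741 (+) for Gja1, chr4:127312774-127312809 (-) for Gja4, chr3:97050788-97050823 (+) for Gja5 and chr11:102800984-102801019 (-) for Gjc1, in GRCm38 (the mm10 build) from GENCODE M21.
Gja1: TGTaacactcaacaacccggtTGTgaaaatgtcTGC
Gja4: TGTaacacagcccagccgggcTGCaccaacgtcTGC
Gja5: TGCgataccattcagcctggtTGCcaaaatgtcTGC
Gjc1: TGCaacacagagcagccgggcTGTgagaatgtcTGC
Of these 36 bases, 23 (Gja4 and Gja5) to 28 (Gjc1 with Gja1 or Gja4) were identical between pairs. Across the whole coding sequences, the longest identical stretch between any 2 of the 4 was 26 bases (Gja1 and Gja4), against reads of 150 bases. None of the 7 genes had a near-identical copy, set at 95% identity over 80% of a transcript. Below that setting, transcripts of Gja1 aligned to 631 other genes, the best match at 86.4% identity over 331 bases. Those of Gjc1 aligned to 276 other genes, the best match at 78.2% identity over 124 bases. Among the best matches of each gene, Gja5 had the one with the highest identity. One of its 3 annotated transcripts aligned to a transcript of Zfp697 at 99.4% identity over 856 bases. Its exons also share 165 of 5746 bases with Gpr89 on the opposite strand, and this RNA protocol keeps no strand information.

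Depth estimated from the steps between low values was 20500000 and 11200000 fragments in controls 1 and 2 and 21900000 and 16700000 in Zeb1-CKO libraries 1 and 2. Zeb1 itself was measured at 10.7 and 11.1 FPKM (fragments per transcript length in kilobases, relative to all fragments of the library) in controls and at 8.66 and 7.07 FPKM in Zeb1-CKO libraries. Its log2 fold change of -0.43 (SE 0.15) did not pass, with limma's adjusted p at 0.235, although both Zeb1-CKO values were below both controls. All 12 endothelial markers were above the mean of 1 FPKM needed for testing, with summed levels at 4121 and 4893 FPKM in controls and at 4629 and 5025 FPKM in Zeb1-CKO libraries. Markers of other cells were present in each library. Summed pericyte markers ranged from 1728 to 2494 FPKM, and photoreceptor markers were at 11.9 FPKM in control 2 against 56.0 to 107 FPKM in the others. Values for a mixed sort cannot tell fewer cells of a type from less RNA per cell.

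Gja4 was by far the most abundant of the 7 genes and made up most of the connexin RNA. It was measured at 163 and 133 FPKM in controls and at 117 and 131 FPKM in Zeb1-CKO libraries, and it ranked 264th by mean level among the 13651 genes tested. Gja1 came next at 38.2 ± 2.62 FPKM in controls (SD, n = 2), followed by Gjc1 at 16.3 ± 2.98 FPKM and Bmx at 9.06 ± 2.08 FPKM. The other 3 were near the lower limit for testing: Gkn3 was at 1.56 ± 1.18 FPKM, Alpl at 1.41 ± 0.905 FPKM and Gja5 at 0.347 ± 0.331 FPKM (SD, n = 2). In controls the neighbours in this order did not overlap, except Gkn3 (0.728 and 2.39 FPKM) and Alpl (0.768 and 2.05 FPKM). In Zeb1-CKO libraries Gja5 stood above Alpl, and no neighbours in the order overlapped. Of the summed FPKM of 20 connexin genes, Gja4 held 70.5% to 76.5% in the 4 libraries, Gja1 12.9% to 21.2%, Gjc1 7.51% to 8.41% and Gja5 0.0595% to 1.51%.

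**Figure D1:**
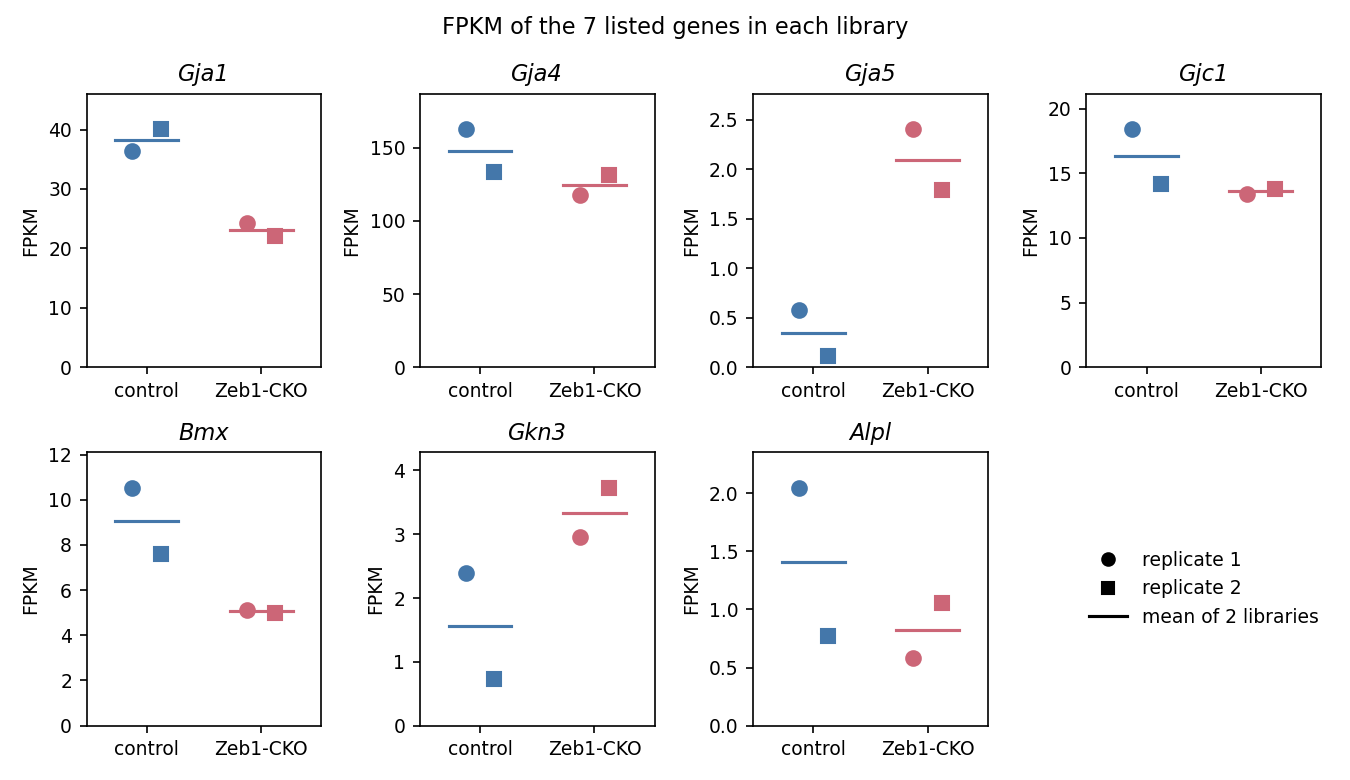
FPKM of each listed gene (vertical axes from 0, in FPKM) in the 2 control and 2 Zeb1-CKO libraries, with circles for replicate 1, squares for replicate 2 and lines for the mean of 2 libraries. The genotypes do not overlap for 6 genes, with lower values in Zeb1-CKO for Gja1, Gja4, Gjc1 and Bmx and higher values for Gja5 and Gkn3, and they overlap for Alpl.

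The other 16 connexin genes were all under 1 FPKM in every library, so none entered the test. Gjb5 was listed at 0 in all 4 libraries, and 7 of the 16 were above 0 in all 4. The highest single value among them was 0.753 FPKM, for the epithelial and cochlear connexin gene Gjb2 in Zeb1-CKO library 2. Together the 16 made up 0.778% to 1.49% of the summed connexin FPKM.

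**Figure D2:**
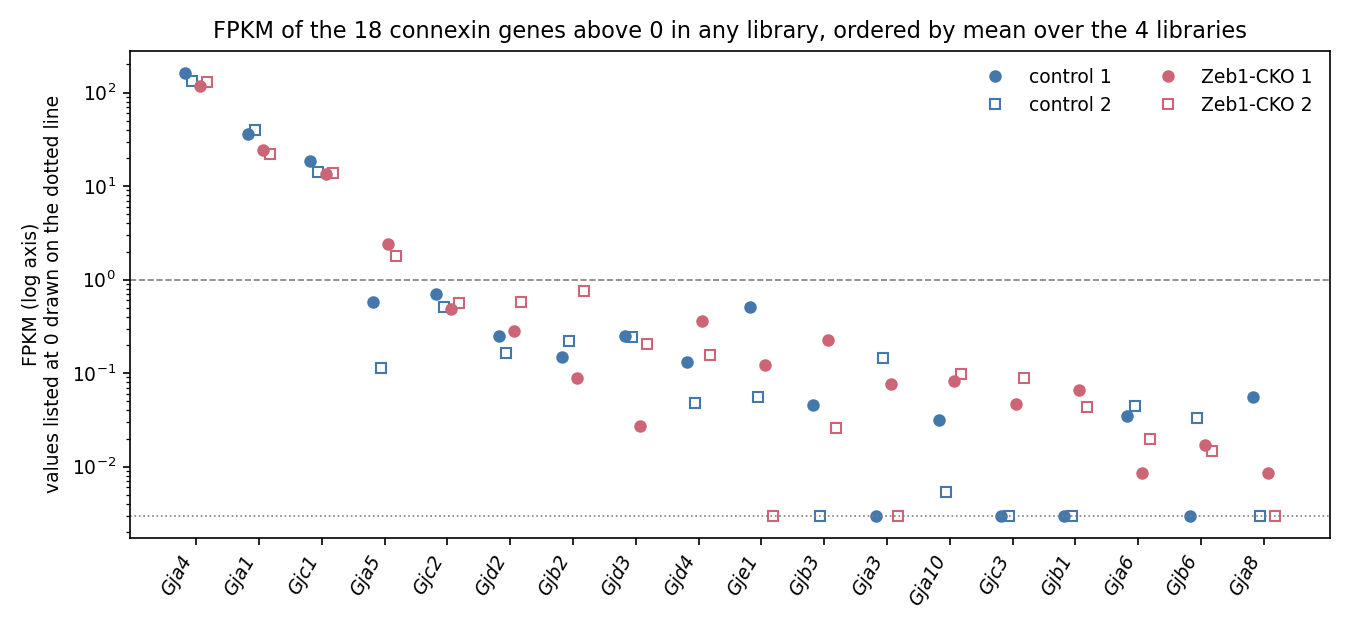
FPKM of the 18 connexin genes above 0 in any library, on a log axis, in the 4 libraries (blue, control; red, Zeb1-CKO; filled circles, replicate 1; open squares, replicate 2), with values listed at 0 drawn on the dotted line and 1 FPKM as a dashed line. Gja4, Gja1 and Gjc1 lead the family, Gja5 crosses 1 FPKM, with Zeb1-CKO values above it and control values below it, and the others lie below the dashed line.

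None of the 7 genes passed the threshold between genotypes, while 3.13% of all 13651 genes tested did (2.23% higher and 0.901% lower). The test was limma on log2(FPKM + 1) over all genes, with Benjamini-Hochberg adjusted p under 0.05 as the threshold. Gja1, Gja5 and Bmx had an unadjusted p under 0.05, 1 of them higher and 2 lower in Zeb1-CKO cells. Of all genes tested 17.9% had such a p, 10.5% higher and 7.35% lower. The genotypes did not overlap for 6 of the 7, against 49.4% of all genes tested. Of these 6, 4 were lower (background 22.3%) and 2 higher (background 27.1%) in Zeb1-CKO cells. The median log2 fold change was -0.25 over the 7 genes and 0.02 over all genes. With 2 libraries against 2, an exact permutation test of a single gene cannot go below p = 0.333, so it was not used.

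Gja1, the connexin gene with the widest expression, had the lowest adjusted p of the 7. It was at 36.4 and 40.1 FPKM in controls and at 24.2 and 22.1 FPKM in Zeb1-CKO libraries. Both Zeb1-CKO values were below both controls, and the gap between genotypes was larger than the spread within either. The log2 fold change was -0.70 (SE 0.14, 95% interval -1.04 to -0.36, not adjusted for the number of genes), or a mean ratio of 0.606, with limma's adjusted p at 0.0613. Without any 1 library the log2 fold change stayed between -0.77 and -0.63. The gene lies on chromosome 10, from 56377330 to 56402513 on the plus strand, with 8 annotated transcripts.

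Gja4, an arterial connexin gene that is also expressed in mural cells (chromosome 4, 127311421 to 127314039, minus strand, 1 transcript), had values close together. The control value of 133 FPKM in library 2 and the Zeb1-CKO value of 131 FPKM in library 2 nearly met. The log2 fold change was -0.25 (SE 0.16, 95% interval -0.63 to 0.14), with limma's adjusted p at 0.476. The interval thus spans levels in Zeb1-CKO cells from 0.646 to 1.10 of control on the FPKM + 1 scale. Gjc1 (chromosome 11, 102799579 to 102819700, minus strand, 5 transcripts) gave a similar size. It was at 18.4 and 14.2 FPKM in controls and at 13.4 and 13.8 FPKM in Zeb1-CKO libraries. Control 1 was high, and the other 3 libraries lay close together. Its log2 fold change was -0.24 (SE 0.17, 95% interval -0.65 to 0.18; adjusted p of 0.525 by limma). Without control 1 the log2 fold change was -0.10 for Gja4 and -0.06 for Gjc1, and without control 2 it was -0.39 and -0.41.

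Gja5, the connexin gene most restricted to arterial endothelium and heart conduction tissue, had higher values in Zeb1-CKO cells, from a low base. It was at 0.581 and 0.113 FPKM in controls and at 2.41 and 1.79 FPKM in Zeb1-CKO libraries. Both Zeb1-CKO libraries were above both controls, with a mean ratio of 6.05. The added 1 FPKM makes the change of a low gene look smaller, and the log2 fold change of FPKM + 1 was 1.22 (SE 0.27, 95% interval 0.56 to 1.87), and limma's adjusted p was 0.0809. With a pseudocount of 0.1 in place of 1 the log2 fold change was 2.52, with an adjusted p of 0.143. The gene reached the mean of 1 FPKM only through the Zeb1-CKO libraries, so a gene silent in controls could enter the test only if it was higher there. In control 2, the shallowest library, its value amounted to 4.62 steps (each about 1 fragment) at the length of the longest transcript, against 193 and 110 in the Zeb1-CKO libraries. Zfp697, which shares sequence with 1 of its transcripts, was at 1.97 and 1.28 FPKM in controls and at 1.32 and 1.08 FPKM in Zeb1-CKO libraries. Gpr89 on the other strand was at 4.94 and 5.32 FPKM in controls and at 5.85 and 5.53 FPKM in Zeb1-CKO libraries. The gene spans 96904693 to 97077416 on the plus strand of chromosome 3.

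Among the arterial markers, the kinase gene Bmx (X chromosome, 164192842 to 164258193, minus strand) was at 10.5 and 7.59 FPKM in controls and at 5.14 and 4.99 FPKM in Zeb1-CKO libraries. The 2 Zeb1-CKO values lay close together below both controls. The log2 fold change was -0.72 (SE 0.19, 95% interval -1.18 to -0.25), a mean ratio of 0.559, and limma's adjusted p was 0.122. It was -0.50 without control 1 and -0.93 without control 2. Of the other 4 TEC-family kinase genes only Tec was tested. Tec, a kinase of the same family, had values in the other direction, at 3.65 and 4.50 FPKM in controls and at 6.44 and 6.77 FPKM in Zeb1-CKO libraries (log2 fold change 0.59, limma adjusted p of 0.133). Btk and Txk, which belong mainly to lymphoid and myeloid cells, did not reach a mean of 1 FPKM.

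Gkn3 (chromosome 6, 87383256 to 87388935, minus strand, 1 transcript) was at 2.39 and 0.728 FPKM in controls and at 2.95 and 3.73 FPKM in Zeb1-CKO libraries. Control 1 lay near the lower Zeb1-CKO library, while control 2 stood far below all 3. The log2 fold change was 0.84 (SE 0.34, 95% interval -0.01 to 1.68), with limma's adjusted p at 0.284. It was 1.32 without control 1 and 0.35 without control 2, so control 2 carried most of the difference. Its value in control 2 amounted to 6.96 such steps. Gkn1, a neighbouring gastrokine gene known from gastric epithelium, rose from 0.368 and 0 FPKM in controls to 3.92 and 7.92 FPKM in Zeb1-CKO libraries (log2 fold change 2.50, SE 0.34, limma adjusted p of 0.0233). Like Gja5, Gkn1 reached the mean of 1 FPKM only through the Zeb1-CKO libraries, so it could enter the test only by being higher there. That call ended without control 2 (adjusted p of 0.0502), Zeb1-CKO 1 (0.0585) or Zeb1-CKO 2 (0.121), with a replicate block (0.0543), with a pseudocount of 0.1 (0.0525) and with no filter on the mean (0.166). Gkn2 was at 0.0623 FPKM in control 1 and listed at 0 in the other 3 libraries.

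Alpl (chromosome 4, 137741733 to 137796384, minus strand, 8 transcripts) was the one listed gene whose genotypes overlapped. It was at 2.05 and 0.768 FPKM in controls and at 0.587 and 1.06 FPKM in Zeb1-CKO libraries, so control 1 was high and the other 3 lay together. The log2 fold change of -0.36 (SE 0.33, 95% interval -1.17 to 0.45) had an adjusted p of 0.621 by limma, and without control 1 it turned to 0.031. With a mean of 0.822 FPKM in Zeb1-CKO libraries, Alpl reached the mean of 1 FPKM only through the controls. A gene that low in Zeb1-CKO cells could enter the test only by being higher in controls. Of 11 genes of alkaline phosphatase and phosphate handling, 7 were tested and none passed, also at an unadjusted p under 0.05 (0 of 7, by limma). The most abundant was Slc20a1, a sodium-phosphate cotransporter gene, at 8.23 ± 1.86 and 8.91 ± 0.763 FPKM in control and Zeb1-CKO cells (SD, n = 2). Next came Ank, which encodes a membrane protein of pyrophosphate export, at 6.05 and 9.00 FPKM in controls and at 6.34 and 7.95 FPKM in Zeb1-CKO libraries.

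**Figure D3:**
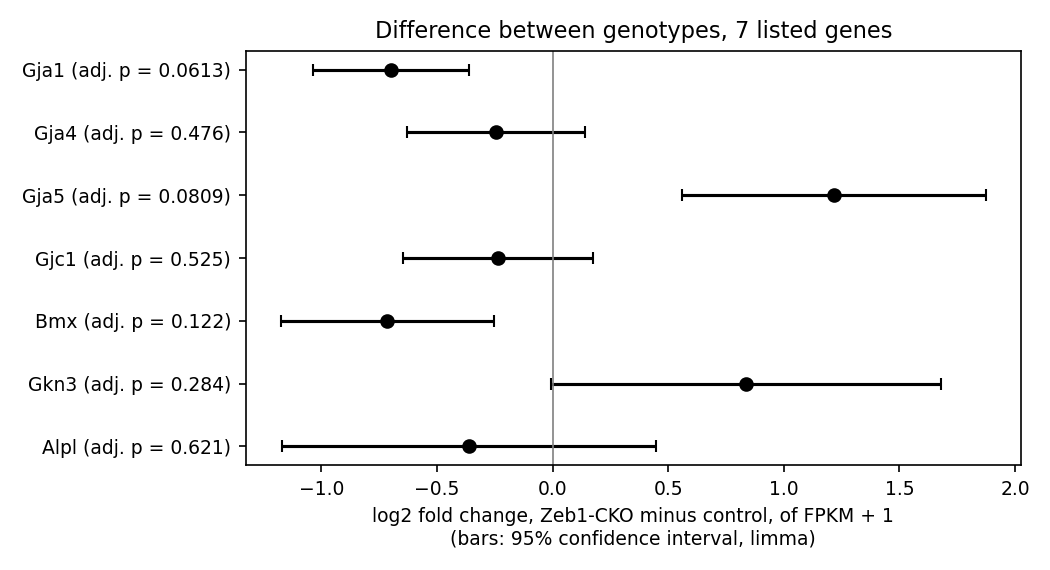
Log2 fold change of FPKM + 1, Zeb1-CKO minus control, for the 7 listed genes, with limma's 95% confidence intervals (bars) and adjusted p beside each name. The intervals of Gja1 and Bmx lie below 0, that of Gja5 lies above 0, those of the other 4 include 0, and every adjusted p is at or above 0.0613.

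**Figure D4:**
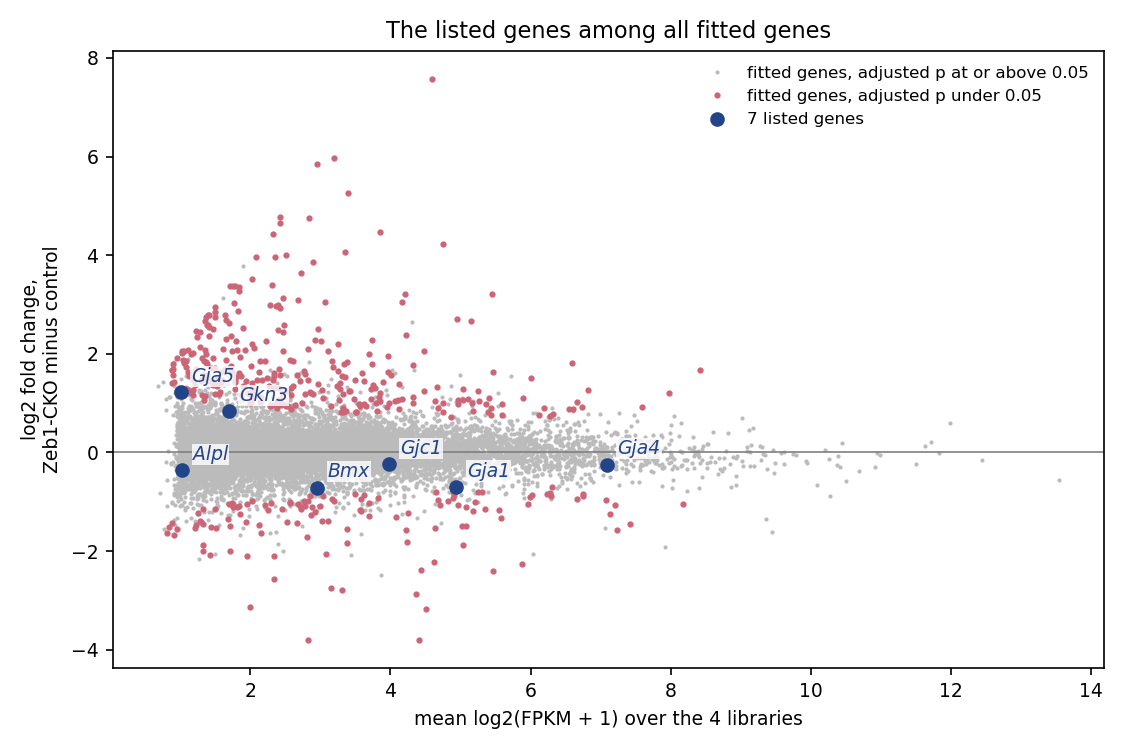
Log2 fold change (vertical) against mean log2(FPKM + 1) over the 4 libraries (horizontal) for the 13651 genes tested, with genes past the threshold in red and the 7 listed genes in blue. Gja5, Alpl and Gkn3 sit at the low end of the horizontal axis, and none of the 7 passed.

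Mural cells express Gja4, Gja1 and Gjc1 as well, and the summed levels of their markers were lower in both Zeb1-CKO libraries than in both controls. Summed over 10 smooth muscle markers, the level stood at 652 and 512 FPKM in controls and at 342 and 417 FPKM in Zeb1-CKO libraries, and 7 of 8 tested members had a negative log2 fold change. Myl9, a myosin light chain gene, was at 391 and 283 FPKM in controls and at 173 and 232 FPKM in Zeb1-CKO libraries. The contractile actin gene Acta2 was at 109 ± 23.3 and 56.3 ± 13.4 FPKM (SD, n = 2). Summed over 11 pericyte markers, the level stood at 2494 and 2023 FPKM in controls and at 1728 and 1931 FPKM in Zeb1-CKO libraries, with 10 of 11 negative. Rgs5, a G-protein regulator gene of pericytes, was at 1673 and 1348 FPKM in controls and at 1201 and 1262 FPKM in Zeb1-CKO libraries, and Higd1b at 178 ± 37.7 and 147 ± 55.4 FPKM (SD, n = 2). By limma no pericyte marker passed. Unadjusted p was under 0.05 for 4 pericyte markers with lower values (7.35% of all genes) and for Atp13a5 with higher values, at 1.37 and 1.28 FPKM in controls and at 3.01 and 2.23 FPKM in Zeb1-CKO libraries. It was under 0.05 for 5 of 8 smooth muscle markers, all lower, and 1 of the 8 passed, against 0.901% of all genes. This was Tagln, an actin-binding protein gene, at 16.6 and 14.8 FPKM in controls and at 7.85 and 8.57 FPKM in Zeb1-CKO libraries (limma adjusted p of 0.0429). That call ended without any 1 library, with adjusted p from 0.0859 to 0.195, with a replicate block (0.111), with no variance trend (0.0622) and with no filter on the mean (0.163). Gja4 and Gjc1 ordered the 4 libraries as both sums did, from control 1 through control 2 and Zeb1-CKO 2 to Zeb1-CKO 1, an order that 5.85% of all genes tested had. The order was not particular to mural markers. The sums of the other arterial, venous and capillary genes described below had it too, as did the glial gene Glul. Gja1 and Bmx had other orders. No marker of either list was at 0 in any library, and the part of mural cells in the connexin values was not tested.

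**Figure D5:**
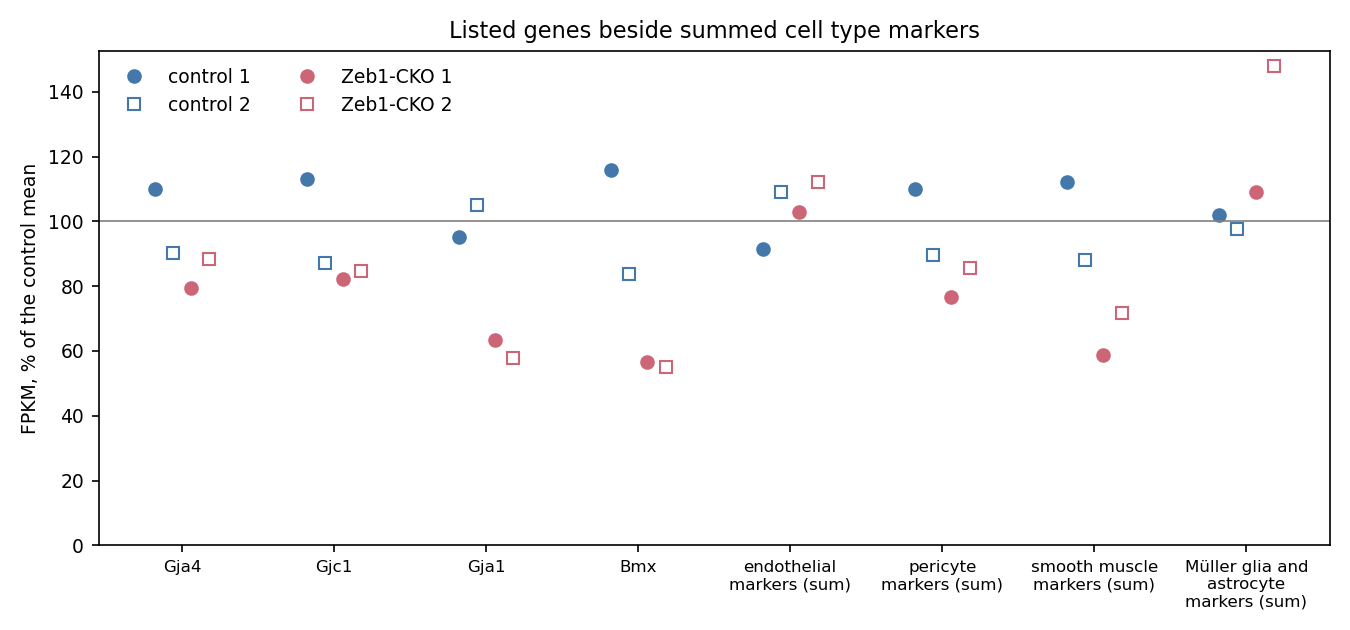
FPKM as a percent of the control mean (vertical axis from 0) for Gja4, Gjc1, Gja1 and Bmx and for summed markers of endothelium, pericytes, smooth muscle, and Müller glia and astrocytes, in the 4 libraries (blue, control; red, Zeb1-CKO). The pericyte sum was at 76.5% and 85.5% and the smooth muscle sum at 58.7% and 71.6% in Zeb1-CKO libraries, beside 79.3% and 88.5% for Gja4 and 63.4% and 57.7% for Gja1.

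Astrocytes and Müller glia also express Gja1, and their markers did not all differ in 1 direction. The sum of 12 markers was at 272 and 260 FPKM in controls and at 290 and 395 FPKM in Zeb1-CKO libraries, and 7 of 8 tested members had a positive log2 fold change. The astrocyte filament gene Gfap was at 56.7 and 60.6 FPKM in controls and at 68.2 and 137 FPKM in Zeb1-CKO libraries, and Dkk3 at 67.5 ± 0.427 and 99.7 ± 10.6 FPKM (SD, n = 2). The glutamine synthetase gene Glul went the other way, at 71.9 and 64.8 FPKM in controls and at 44.9 and 45.3 FPKM in Zeb1-CKO libraries. Aqp4, the glial water channel gene, was listed at 0 in both controls and was at 0.0269 and 0.221 FPKM in Zeb1-CKO cells. By limma none of the 8 passed, and unadjusted p was under 0.05 for 3 with higher values (10.5% of all genes) and for Glul with lower values (7.35% of all genes). Retinal neuron markers summed to 27.1 to 51.4 FPKM in the 4 libraries, led by Rbpms at 20.6 ± 1.64 and 21.3 ± 6.80 FPKM (SD, n = 2). The photoreceptor arrestin gene Sag was at 1.87 FPKM in control 2 and at 15.7 FPKM in control 1. Of the 7 listed genes, all but Gja1 were lower in control 2 than in control 1. Microglial and myeloid markers summed to 69.3 to 136 FPKM, with Lyz2 at 13.8 ± 6.39 and 7.79 ± 8.92 FPKM (SD, n = 2). The part of these cells in the listed genes' values was not tested.

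Other arterial genes were described with a list of 25, of which 24 were tested and Cytl1 was listed at 0 in all libraries. Only the netrin receptor gene Unc5b passed, lower in Zeb1-CKO cells (1 of 24, against 0.901% of all genes), and 23 did not pass. Unc5b was at 10.8 and 13.1 FPKM in controls and at 5.44 and 5.66 FPKM in Zeb1-CKO libraries, a log2 fold change of -0.98 (SE 0.16, limma adjusted p of 0.0372). That call ended without any 1 library, with adjusted p from 0.0563 to 0.185, with a replicate block (0.0861), with no variance trend (0.0510) and with no filter on the mean (0.166). The median log2 fold change of the list was -0.11, beside 0.02 over all genes, with 14 negative and 10 positive values. Unadjusted p by limma was under 0.05 for 9 of the 24 (17.9% of all genes). Of these, 7 were lower (7.35% of all genes) and 2 higher (10.5%). Under median-of-ratios and upper-quartile scaling, 3 and 4 members of the list were called lower. Among all 13651 genes tested, these scalings called 157 and 168 lower, against 123 without scaling.

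Endothelial genes of other vessel types stood as follows. By limma none of 13 venous genes passed, and their median log2 fold change was -0.21, with 9 negative and 4 positive values. Unadjusted p was under 0.05 for 4 of them (17.9% of all genes), 2 lower and 2 higher. The higher ones were Vwf, the von Willebrand factor gene, at 41.6 ± 4.17 and 63.2 ± 0.108 FPKM, and Ackr1, an atypical chemokine receptor gene, at 1.01 ± 0.494 and 4.31 ± 1.79 FPKM (SD, n = 2). The amino acid transporter gene Slc38a5 was at 342 ± 39.6 and 294 ± 30.7 FPKM and the apelin receptor gene Aplnr at 275 ± 7.21 and 251 ± 0.515 FPKM (SD, n = 2). Of 9 capillary genes 2 fell (0.901% of all genes did) and 7 did not pass, with a median log2 fold change of -0.69. Unadjusted p was under 0.05 for 6 of the 9, all lower, against 7.35% of all genes. The organic anion transporter gene Slc22a8 fell from 77.1 and 72.1 FPKM to 29.7 and 28.8 FPKM, and the proteoglycan gene Spock2 from 211 and 221 FPKM to 83.4 and 97.4 FPKM. Both calls ended without Zeb1-CKO 1 or without Zeb1-CKO 2, with adjusted p from 0.0683 to 0.0998, and that of Spock2 also with no filter on the mean (0.109).

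Regulators of arterial identity and of the response to flow were described with a list of 22, all tested, of which 1 fell (0.901% of all genes did) and 21 did not pass. Klf2, a shear-induced transcription factor gene, fell from 143 and 146 FPKM to 77.1 and 79.1 FPKM, a log2 fold change of -0.88 (SE 0.12, limma adjusted p of 0.0255). The call ended without any 1 library, with adjusted p from 0.0748 to 0.140, with a replicate block (0.0956) and with no filter on the mean (0.138). The median log2 fold change of the list was -0.14, with 15 negative and 7 positive values. Unadjusted p by limma was under 0.05 for 7 of the 22 (17.9% of all genes). Of these, 6 were lower (7.35% of all genes) and 1 higher (10.5%). Of 12 genes of connexin partners and turnover, 11 were tested and 1 rose, against 2.23% of all genes. Cav1, which encodes the caveolar coat protein, rose from 4.50 and 4.04 FPKM to 11.7 and 11.6 FPKM (log2 fold change 1.26, SE 0.14, limma adjusted p of 0.0149), and 10 did not pass. Its call ended without Zeb1-CKO 1 or without Zeb1-CKO 2 (adjusted p of 0.116 and 0.121) and with no filter on the mean (0.0765). Of the pannexins, channel proteins with a topology like that of connexins, only Panx1 was tested. It was at 3.40 ± 0.0620 and 4.33 ± 0.160 FPKM (SD, n = 2, limma adjusted p of 0.403), and Panx3 stayed between 0 and 0.113 FPKM.

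Promoters were searched because ZEB1 binds E-boxes with the letters CACCTG, and 7 promoters of 6 of the genes were found in RefSeq sequence of GRCm38.p6 (250 bases before each start). The letters were searched on both strands, so CAGGTG also counts. They occurred in 1 of the 7, a second Alpl promoter at chr4:137766476-137766725 (-), against 17.2% of 32851 promoters. That site lies 185 bases before the start. Any E-box (CANNTG, which includes CACCTG) was present in 5 of the 7, against 66.2% of all promoters. The sites GTGGGAA (RBPJ), CACGTG (HEY type) and ACAATG (SOX) were in none of the 7, against 5.42%, 6.02% and 10.7%. The sequences below are those of Gja1 and Bmx, the 2 listed genes with the largest negative log2 fold change, and of the Alpl promoter with the match. They are given 5′ to 3′ on the gene's strand, with every E-box in capitals.
Gja1 (chr10:56377050-56377299, +): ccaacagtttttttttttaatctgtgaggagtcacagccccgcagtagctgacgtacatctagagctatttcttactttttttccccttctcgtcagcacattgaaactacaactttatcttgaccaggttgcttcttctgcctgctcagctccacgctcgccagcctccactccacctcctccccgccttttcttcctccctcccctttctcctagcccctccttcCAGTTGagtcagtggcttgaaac
Bmx (chrX:164258194-164258443, -): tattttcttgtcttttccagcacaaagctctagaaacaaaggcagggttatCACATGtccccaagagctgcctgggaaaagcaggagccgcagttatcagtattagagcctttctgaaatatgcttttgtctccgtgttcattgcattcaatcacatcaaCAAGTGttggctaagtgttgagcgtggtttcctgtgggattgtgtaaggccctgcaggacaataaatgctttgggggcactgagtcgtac
Alpl, second promoter (chr4:137766476-137766725, -): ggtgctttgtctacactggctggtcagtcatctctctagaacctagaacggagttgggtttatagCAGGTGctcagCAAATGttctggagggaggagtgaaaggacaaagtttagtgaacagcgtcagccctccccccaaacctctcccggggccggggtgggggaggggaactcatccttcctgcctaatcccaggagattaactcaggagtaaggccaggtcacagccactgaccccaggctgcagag
The E-box of Gja1 has the letters CAGTTG and lies 23 bases before the start, and those of Bmx are CACATG and CAAGTG, at 199 and 90 bases. The promoter listed for Gja5 starts 127709 bases from the start given in the expression table, which is where the annotated gene begins. A match is a description of letters, and its absence says only that they are not in these windows.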

How the data were processed

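Expression was compared between 2 control and 2 Zeb1-CKO libraries, matched to the table's columns by name. The deposited values are FPKM per gene as the authors made them. Trimmomatic 0.36, HISAT2 2.1.0, StringTie 1.3.3 and build mm10 are named, per the submitters' processing notes, with no settings. The unit was read from the values and tools. Since FPKM are relative to each library's total, some genes can shift others.

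The 13651 genes whose mean reached 1 FPKM were fitted by genotype with trended variances in limma 3.58.1, under R 4.3.3, on log2(FPKM + 1), with Benjamini-Hochberg adjustment over all of them and a threshold of 0.05. Since FPKM are not counts, no count test was run. Depth was taken from steps in FPKM times length of genes with 1 transcript over 600 bases, where 19.6% to 26.5% of low values lay at most 0.02 steps from a whole number of steps. Reads carry no molecular identifiers, so depth overstates independent molecules. Gene models are from GENCODE M21 (53229 of 54446 identifiers had the same version), and copies were sought with BLAST 2.17.0. Figures used matplotlib 3.10.9.

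The listed genes and the gene lists were chosen with earlier results of these data known. Named are the listed genes, Zeb1, other connexins with a mean of at least 1 FPKM, up to 4 called members of each list or else its 2 most abundant, the 2 most abundant markers of each cell type, and the 3 genes most like each of the 2 listed genes with the largest absolute log2 fold change. Aqp4, Tagln, Glul, Atp13a5, Vwf, Ackr1, Gjb2, Gjb5, Gkn2, Btk, Txk, Cytl1, Zfp697 and Gpr89 were added after their values were seen. A few genes that the rule or the lists hold are not reported here by name. Alternatives were 2 scalings, 2 pseudocounts, 2 filters, 2 variance models, the replicate number as a block and each library left out.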

Additional observations from a re-analysis of the deposited data

How the results depend on the processing

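None of the 7 listed genes passed the threshold under any of the 13 alternatives (12 for Gja5, Gkn3 and Alpl, which a filter on a mean of 5 FPKM removes). Their lowest adjusted p was 0.0567, for Gja1 with median-of-ratios scaling. Signs held in 87 of 88 values, the exception being Alpl without control 1. The number of genes called among all tested changed more. It was 304 higher and 123 lower, and 70 and 15 with no filter on the mean, 169 higher with a mean of at least 5 FPKM, and 44 to 224 higher and 15 to 59 lower without any 1 library. With a replicate block it was 155 higher and 38 lower, and the block changed no call of a listed gene. Libraries with the same number did not deviate together over genes (correlation of deviations -0.118). With 2 libraries per genotype this value cannot decide whether the numbers pair the libraries, and the labels do not say. A crossed pairing, added after the data were seen, gave 306 higher and 149 lower. Other named genes changed sign in 11 of 401 values, all of genes that did not pass with all 4 libraries. Over the 4 fits that each leave out 1 library, log2 fold changes ran from -0.75 to 0.031 for Alpl, from -0.093 to 0.32 for Slc20a1, from -0.30 to 0.20 for Ank, from -0.050 to 0.30 for Cldn5 and from -0.70 to 0.081 for Higd1b. They ran from -2.51 to 0.10 for Lyz2, from -0.55 to 1.99 for Sag and from -0.31 to 0.33 for Rbpms, which was also at -0.021 and -0.042 with median-of-ratios and upper-quartile scaling. The causes were not tested. The 2 libraries per genotype limit the precision, as the width of each interval shows.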

Other observations

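Genes whose values over the 4 libraries were most like those of Gja5 were sought among 6603 protein-coding genes whose mean reached 5 FPKM (predicted and mitochondrial genes left out), by the distance between log2(FPKM + 1) values centred on each gene's mean. The nearest was Coro1a, an actin regulator gene of leukocytes, at a distance of 0.14, and was at 6.05 and 3.71 FPKM in controls and at 12.2 and 10.7 FPKM in Zeb1-CKO libraries (limma adjusted p of 0.0679). Tmem154 followed at 0.16, and it rose from 3.47 and 2.28 FPKM to 9.43 and 8.18 FPKM (log2 fold change 1.35, limma adjusted p of 0.0311). Coro1a and Tmem154, with control means of 4.88 and 2.88 FPKM, reached the mean of 5 FPKM only through the Zeb1-CKO libraries. Genes chosen for likeness to Gja5 share its direction by that choice, so calls among them are no separate support. Adgrg1, an adhesion G-protein-coupled receptor gene, came next at 0.25 and rose from 8.45 and 6.51 FPKM to 21.2 and 20.1 FPKM (log2 fold change 1.36, limma adjusted p of 0.0174). Both calls ended without Zeb1-CKO 1 or without Zeb1-CKO 2, with adjusted p from 0.121 to 0.183, and with no filter on the mean (0.174 and 0.103), and that of Tmem154 also without control 2 (0.0636).

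The genes most like Gkn3 in the same measure were Fam58b (distance 0.15), Fam136a (0.18) and Mgat1 (0.19), an N-glycan processing enzyme gene. Each had its lowest value in control 2, at 2.88, 4.45 and 2.44 FPKM, and its highest in Zeb1-CKO library 2, at 9.40, 12.4 and 8.64 FPKM. Fam58b and Mgat1, with control means of 4.92 and 3.87 FPKM, reached the mean of 5 FPKM only through the Zeb1-CKO libraries. None of these 3 passed, with limma's adjusted p from 0.286 to 0.379. Their direction also follows from the choice by likeness. Likeness over 4 libraries describes these libraries and is no sign of shared function.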
